A study of Mus musculus with 16 samples.

Results

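The lipid carrier genes described here are 9 genes, namely Apoe, Apoc1, Clu, Lpl, Lrp1, Cd36, Fabp5, Fabp7 and Plin2, chosen by their names. All 9 were present in both deposited tables of read counts per gene, among 55414 features for microglia and 56980 for astrocytes, and all 9 passed the filter on low counts. The study asked what the signalling scaffold protein Rack1 does in mouse microglia in Alzheimer's disease (AD), and sequenced RNA of microglia and of astrocytes in 16 libraries, 2 for each of 4 groups per cell type. The groups were the AD model with conditional knockout of Rack1 (AD CKO), the knockout without the model (CKO), the AD model with intact Rack1 (AD WT) and wild type (WT). Per the study's design text the knockout was in microglia, so the astrocytes of the CKO groups came from animals whose microglia were targeted. The labels do not name the AD transgenes, the Cre line, the age, the sex or the way the cells were isolated. Nor do they state that both libraries of a group are from different animals, so p-values measure only the spread between these libraries, which may be technical. Total counts ran from 27741882 to 33933068 in the 8 microglia libraries and from 29615853 to 35851170 in the 8 astrocyte libraries.

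In the brain, lipids travel between cells on small lipoprotein particles that astrocytes and, to a lesser degree, microglia secrete. ApoE is the main protein of these particles, ApoC1 is a small exchangeable apolipoprotein, and clusterin (Clu, also called ApoJ) is a second lipoprotein component and a chaperone. Lipoprotein lipase (Lpl) releases fatty acids from their triglycerides. The receptors LRP1 and CD36 take particles and fatty acids into the cell, the binding proteins FABP5 and FABP7 carry fatty acids through the cytosol, and perilipin 2 (Plin2) coats the droplets in which surplus lipid is stored. Microglia around amyloid plaques in AD mouse models are known for high Apoe and Lpl.

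Apoe, Cd36 and Plin2 are the members whose microglial level was higher with the knockout both with and without the AD model, and their promoters are shown for that reason. RefSeq starts of the build GRCm38.p6 were found for 5 of the 9 members, and each window holds 250 bases before the start and 50 after it, 300 in all, read along the gene's strand. Capitals mark matches, on either strand, to AGGTCA, the core hexamer of nuclear receptors such as LXR and PPAR (TGACCT is the same site on the other strand), or to the E-box CACGTG, which factors of the MITF and TFEB family bind.
Apoe, chr7:19699139-19699438, minus strand: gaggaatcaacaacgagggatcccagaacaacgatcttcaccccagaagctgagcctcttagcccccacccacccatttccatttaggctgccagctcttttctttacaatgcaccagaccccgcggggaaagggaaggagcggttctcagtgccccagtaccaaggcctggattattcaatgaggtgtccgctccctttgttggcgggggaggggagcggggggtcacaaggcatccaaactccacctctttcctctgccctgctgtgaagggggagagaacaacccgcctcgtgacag
Cd36, chr5:17835847-17836146, minus strand: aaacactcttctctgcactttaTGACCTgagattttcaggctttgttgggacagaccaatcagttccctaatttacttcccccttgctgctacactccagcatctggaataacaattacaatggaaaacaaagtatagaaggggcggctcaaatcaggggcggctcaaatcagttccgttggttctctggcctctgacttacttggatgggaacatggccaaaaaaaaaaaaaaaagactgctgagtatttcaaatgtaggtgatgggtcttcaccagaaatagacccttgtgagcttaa
Plin2, chr4:86670010-86670309, minus strand: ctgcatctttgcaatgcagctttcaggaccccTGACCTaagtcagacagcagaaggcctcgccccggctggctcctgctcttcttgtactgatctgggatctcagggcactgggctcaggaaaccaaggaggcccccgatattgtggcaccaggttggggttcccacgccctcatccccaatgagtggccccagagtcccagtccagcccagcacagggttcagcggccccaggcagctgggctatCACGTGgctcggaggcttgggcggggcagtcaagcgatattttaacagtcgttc
The Cd36 window holds 1 such hexamer, at position -228 from the start, and the Plin2 window holds 1 at -218 and an E-box at -4, while the Apoe window holds no match to either motif. The table holds 2 further start windows of Apoe, which have no match either. Of the members not shown, Fabp7, whose microglial level did not rise in any comparison, also has 1 such hexamer, at -171, and Lrp1 has no match. The hexamer was present in 16.3% and E-boxes in 7.15% of the 32851 promoters of the same length in the reference. None of these 3 printed windows held 2 direct repeats of the hexamer spaced by 1 or 4 bases, the arrangements DR1 and DR4, which were present in 0.0396% and 0.0152% of promoters. The Cd36 start used here lies inside the gene's span in GENCODE M21, so that other starts of the gene were not searched.

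Rack1 itself, the gene that was targeted, had 47.2 and 47.8 CPM in AD CKO microglia, 40.4 and 42.0 in CKO, 113 and 115 in AD WT, and 98.1 and 95.2 in WT. It was thus at a level 2.35-fold lower in CKO than in WT microglia and 2.40-fold lower in AD CKO than in AD WT. In astrocyte libraries Rack1 had 54.7 and 53.3 CPM in AD CKO, 102 and 95.7 in CKO, 76.6 and 72.9 in AD WT, and 61.1 and 57.9 in WT, higher with the knockout without the AD model and lower with it. CPM are read counts relative to the size of the library, after TMM normalisation.

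The cell types of the labels were checked with marker genes. The sum of 10 microglial markers was 27060 to 27260 CPM in AD CKO microglia, 25470 to 25640 in CKO, 40120 to 40490 in AD WT and 46580 to 47880 in WT, while the sum of 10 astrocyte markers was between 282 and 381 CPM in all 8 of these libraries. Microglia libraries also held 10 oligodendrocyte markers, with sums of 2268 to 2319 CPM in AD CKO, 8238 to 8631 in CKO, 3759 to 3761 in AD WT and 3152 to 3294 in WT. Their 7 neutrophil markers summed to 264 to 282 CPM in AD CKO, 601 to 602 in CKO, 424 to 428 in AD WT and 219 to 239 in WT, and all 7 rose both in CKO against WT and in AD WT against WT. The sum of 9 endothelial markers was 604 to 620 CPM in AD CKO, 559 to 566 in CKO, 877 to 889 in AD WT and 506 to 515 in WT, and that of 8 mural cell markers was 232 to 234 in AD CKO, 245 to 249 in CKO, 339 to 344 in AD WT and 216 to 221 in WT. All 9 endothelial and all 8 mural markers rose in AD WT against WT, the comparison in which Apoe, Lpl, Fabp5, Plin2 and Apoc1 also rose. The astrocyte libraries were less uniform: the astrocyte marker sum was 12240 to 12380 CPM in AD CKO, 8354 to 8651 in CKO, 18440 to 19350 in AD WT and 19680 to 20250 in WT. Their oligodendrocyte sum was 19090 to 19230 CPM in AD CKO, 13400 to 13750 in CKO, 6961 to 7163 in AD WT and 14590 to 14760 in WT. In such bulk samples, fewer cells of a type and less RNA per cell cannot be told apart. No marker of these lists was at 0 in every library. The marker levels moved with the groups, and their part in the results below was not tested.

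**Figure D1:**
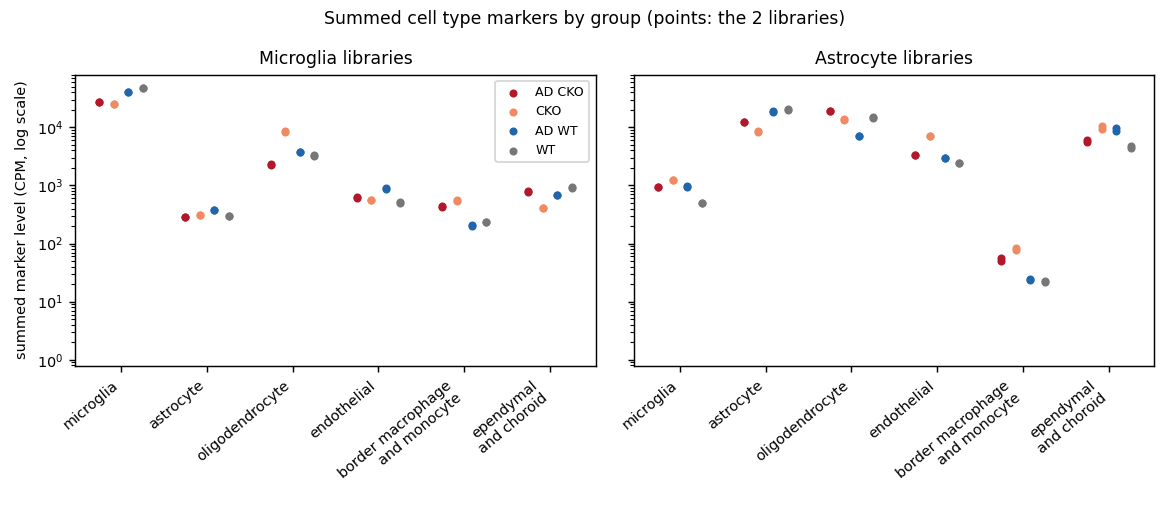
Summed CPM (log axis) of 6 lists of cell type markers in the microglia libraries (left) and the astrocyte libraries (right). Points are the 2 libraries of each group. Border macrophage and monocyte markers reached 550 to 553 CPM in CKO microglia, against 235 to 239 CPM in WT microglia.

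In microglia Apoe rose both with the knockout alone and with the AD model alone, while Lpl and Fabp5 fell with the first and rose with the second. In CKO against WT, Apoe, Cd36 and Plin2 rose and Lpl and Fabp5 fell. In AD WT against WT, Apoe, Lpl, Fabp5, Plin2 and Apoc1 rose and Fabp7 fell. In AD CKO against AD WT, Apoe, Lpl, Cd36, Plin2 and Lrp1 rose, and Fabp5, Clu and Apoc1 fell. Here a gene rose, fell or changed where the adjusted p of edgeR's quasi-likelihood test (Benjamini-Hochberg over all genes tested) was under 0.05.

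In numbers, 5 of the 9 genes changed in CKO against WT microglia, 3 up and 2 down, where 33.6% of the 17318 genes tested changed, 17.7% up and 15.9% down. In AD WT against WT, 6 changed, 5 up and 1 down, where 19.3% of all genes did, 10.7% up and 8.62% down. The knockout within the AD model changed 8, 5 up and 3 down, against 32% of all genes, 17% up and 15% down. The AD model within the knockout changed 6, 3 up and 3 down, against 14.7% of all genes, 7.73% up and 6.92% down. CKO against WT and AD WT against WT share the WT libraries, as AD CKO against AD WT and AD CKO against CKO share the AD CKO libraries. The median log2 fold change of the 9 genes was 0.06, 0.56, 0.14 and 0.05 in these 4 comparisons, and that of all genes tested was 0.04, -0.02, -0.0020 and -0.0013.

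**Figure D2:**
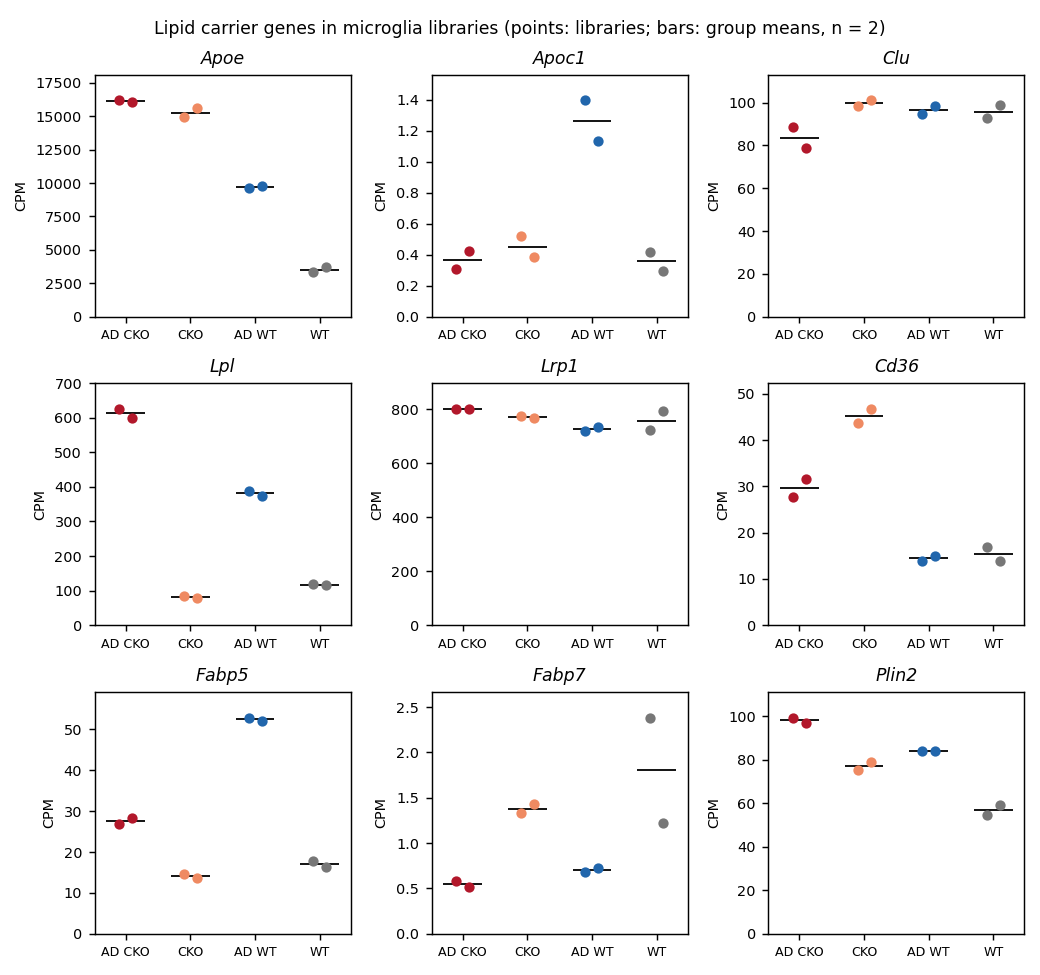
CPM of the 9 genes in the 8 microglia libraries, each panel on its own axis from 0. Points are libraries and bars are means of the 2 libraries of a group; Apoe in WT, at 3341 and 3721 CPM, lies below all other groups.

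Apoe (chromosome 7, 19696109 to 19699188, minus strand, in mm10) was by far the most abundant of the 9 genes in microglia. It had 16178 and 16098 CPM in AD CKO, 14927 and 15580 in CKO, 9608 and 9757 in AD WT, and 3341 and 3721 in WT. The 4 groups did not overlap, and both knockout groups lay above both groups with intact Rack1. Apoe rose 4.32-fold in CKO against WT (log2 fold change 2.11 ± 0.04, SE, adjusted p = 4.71e-15) and 2.74-fold in AD WT against WT (1.46 ± 0.04, adjusted p = 1.17e-12). The knockout effect was smaller within the AD model, at 1.67-fold (0.74 ± 0.04, adjusted p = 1.91e-09). The interaction, which is the knockout effect in the AD model minus that without it, was -1.37 ± 0.06 on the log2 scale (adjusted p = 3.16e-10). The AD CKO and CKO groups came to lie close together. Between AD CKO and CKO the difference of 0.08 ± 0.04 did not pass the test (adjusted p = 0.226), and it did so without WT replicate 1 (adjusted p = 0.0239), without WT replicate 2 (0.0223) and with no filter on low counts (0.00884).

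Apoc1 lies 3448 bases from Apoe on the same strand (chromosome 7, 19689481 to 19692660), and was sparsely counted in microglia, at 9 to 41 reads per library. It had 0.308 and 0.424 CPM in AD CKO, 0.519 and 0.384 in CKO, 1.40 and 1.13 in AD WT, and 0.419 and 0.297 in WT. AD WT stood alone above the other 3 groups, which overlapped. It rose in AD WT against WT (log2 fold change 1.81 ± 0.57, adjusted p = 0.0234) and fell by 1.77 ± 0.56 in AD CKO against AD WT (adjusted p = 0.0167). The first call was lost without any 1 of the 4 libraries compared (adjusted p 0.0655 to 0.168), and the second without either AD WT library (0.127 and 0.055) or AD CKO replicate 1 (0.108).

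Clu (chromosome 14, 65968483 to 65981547, plus strand) had 88.4 and 78.9 CPM in AD CKO microglia, 98.3 and 101 in CKO, 94.6 and 98.5 in AD WT, and 92.9 and 98.9 in WT. The AD CKO libraries lay below all others, and the other 3 groups overlapped. Clu fell by 0.21 ± 0.06 on the log2 scale in AD CKO against AD WT (adjusted p = 0.0102) and by 0.25 ± 0.06 against CKO (adjusted p = 0.00457). Both calls were lost without AD CKO replicate 2 (log2 fold change -0.13 and -0.17), and the first also without AD WT replicate 2 (-0.18). In the microglia libraries 8 of 10 astrocyte markers fell in each of these comparisons, with none rising in the first and 1 in the second. In the interaction of knockout and AD model 8 of the 10 passed with a negative value and none with a positive one. The part of these markers in the Clu results was not tested.

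Lpl, the lipase (chromosome 8, 68880491 to 68907448, plus strand), had the widest span of the 9 genes in microglia. It had 625 and 600.5 CPM in AD CKO, 84.9 and 79.8 in CKO, 389 and 373 in AD WT, and 119 and 115 in WT. The groups did not overlap, and the knockout group was the lowest without the AD model and the highest with it. Lpl fell by 0.51 ± 0.05 in CKO against WT (adjusted p = 1.6e-09), which is 1.42-fold lower. It rose 1.61-fold in AD CKO against AD WT (log2 fold change 0.69 ± 0.04, adjusted p = 1.47e-12). The interaction was 1.19 ± 0.07 (adjusted p = 1.79e-13). The direction of the knockout effect on Lpl therefore depended on the AD model. The AD model itself went with a 3.25-fold rise with intact Rack1 (1.70 ± 0.05, adjusted p = 1.75e-20) and a 7.44-fold rise in the knockout (2.90 ± 0.05, adjusted p = 1.68e-25). Each of these calls held in every alternative run.

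Of the receptors, Lrp1, a large endocytic receptor of ApoE particles (chromosome 10, 127538161 to 127621148, minus strand), stayed between 720 and 801 CPM in all 8 microglia libraries. It had 800.2 and 800.9 CPM in AD CKO, 777 and 767 in CKO, 720 and 734 in AD WT, and 723 and 793 in WT. AD CKO against AD WT passed the test, with a log2 fold change of 0.14 ± 0.04 (adjusted p = 0.00923), and that call was lost without AD WT replicate 1 (0.109) or AD CKO replicate 1 (0.0677). The difference of -0.06 ± 0.04 in AD WT against WT (adjusted p = 0.346) passed with library totals alone (0.0408) and without WT replicate 1 (0.0438), which also brought the interaction past the test (0.18, adjusted p = 0.0296).

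Cd36, the scavenger receptor and fatty acid translocase (chromosome 5, 17781690 to 17888801, minus strand), followed the knockout. It had 27.6 and 31.6 CPM in AD CKO, 43.7 and 46.7 in CKO, 14.0 and 14.9 in AD WT, and 16.8 and 13.9 in WT. AD WT and WT overlapped, and both knockout groups lay above them. Cd36 rose 2.95-fold in CKO against WT (log2 fold change 1.56 ± 0.10, adjusted p = 1.28e-12) and 2.05-fold in AD CKO against AD WT (1.04 ± 0.11, adjusted p = 1.13e-08). The AD model went with a fall by 0.61 ± 0.10 in the knockout (adjusted p = 4.55e-05) and showed a difference of -0.09 ± 0.11 with intact Rack1 (adjusted p = 0.655). Border macrophages, which line vessels and meninges, also express Cd36 and Apoe. The sum of 9 border macrophage and monocyte markers was 423 to 435 CPM in AD CKO, 550 to 553 in CKO, 204 to 205 in AD WT and 235 to 239 in WT, and 6 of the 9 rose in CKO against WT with none falling. In AD CKO against AD WT 5 of the 9 rose and none fell, and in AD CKO against CKO 8 fell and none rose. In AD WT against WT 2 rose and 3 fell. The part of these markers in the Cd36 and Apoe results was not tested.

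Fabp5, the epidermal-type fatty acid binding protein (chromosome 3, 10012548 to 10016607, plus strand), was highest in the AD model with intact Rack1. It had 26.8 and 28.4 CPM in AD CKO microglia, 14.6 and 13.6 in CKO, 52.9 and 52.2 in AD WT, and 17.7 and 16.4 in WT. No groups overlapped, and the knockout group was below its partner with and without the AD model. Fabp5 rose 3.08-fold in AD WT against WT (log2 fold change 1.62 ± 0.09, adjusted p = 1.37e-13) and 1.96-fold in AD CKO against CKO (0.97 ± 0.10, adjusted p = 1.35e-08). It fell by 0.93 ± 0.09 in AD CKO against AD WT (adjusted p = 2.72e-09), and the interaction was -0.65 ± 0.13 (adjusted p = 0.000967). The fall by 0.27 ± 0.10 in CKO against WT (adjusted p = 0.0336) was lost without either AD WT library (0.0524 and 0.0516), WT replicate 1 (0.19) or CKO replicate 2 (0.193), with limma-voom (0.0717), with library totals alone (0.0747) and when only the 2 groups were fitted (0.068). Reads of the Fabp5 transcript could also match 5 processed pseudogenes of 93.6% to 98.3% identity, which averaged at most 2.6 counts per library.

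Fabp7, the brain-type binding protein of glial progenitors and astrocytes (chromosome 10, 57784881 to 57788450, plus strand), had 17 to 74 counts per microglia library. It had 0.582 and 0.515 CPM in AD CKO, 1.33 and 1.43 in CKO, 0.681 and 0.722 in AD WT, and 2.38 and 1.22 in WT. Both groups of the AD model lay below both groups without it. It fell by 1.36 ± 0.43 in AD WT against WT (adjusted p = 0.026), a call lost without WT replicate 1 (log2 fold change -0.80, adjusted p = 0.391), without AD WT replicate 1 (0.138), without AD WT replicate 2 (0.116) and with DESeq2 (0.0514). The fall by 1.33 ± 0.45 in AD CKO against CKO (adjusted p = 0.0455) was lost without any 1 of 6 libraries (0.0537 to 0.19) and with DESeq2 (0.0963), limma-voom (0.0742), no filter (0.0597) or only the 2 groups fitted (0.0612).

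Plin2, the droplet coat (chromosome 4, 86648386 to 86670060, minus strand), had 99.4 and 96.8 CPM in AD CKO microglia, 75.3 and 78.9 in CKO, 83.9 and 84.1 in AD WT, and 54.8 and 59.1 in WT. The groups did not overlap, with WT lowest and AD CKO highest. Plin2 rose 1.35-fold in CKO against WT (log2 fold change 0.44 ± 0.06, adjusted p = 2.05e-06) and 1.47-fold in AD WT against WT (0.56 ± 0.06, adjusted p = 7.17e-08). It also rose in AD CKO against CKO (0.35 ± 0.06, adjusted p = 0.000115) and against AD WT (0.22 ± 0.06, adjusted p = 0.00486), and the last call was lost without AD CKO replicate 1 (adjusted p = 0.0648). The interaction of -0.21 ± 0.09 did not pass the test (adjusted p = 0.114), though it did at the limit with library totals alone (0.05).

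The interaction of knockout and AD model passed the test for 5 of the 9 genes in microglia, 1 up and 4 down, against 12.7% of all genes tested, 5.53% up and 7.19% down. Beside Lpl, Apoe and Fabp5 these were Cd36 (-0.52 ± 0.15, adjusted p = 0.0192) and Clu (-0.26 ± 0.09, adjusted p = 0.0436). The Cd36 call was lost without AD CKO replicate 1 (adjusted p = 0.113), or without replicate 2 of CKO (0.0699), AD WT (0.0981) or WT (0.114). The Clu call was lost without any 1 of 6 libraries (0.0805 to 0.228), with RLE size factors (0.0545), with no filter (0.0604) and with DESeq2 (0.0849).

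**Figure D3:**
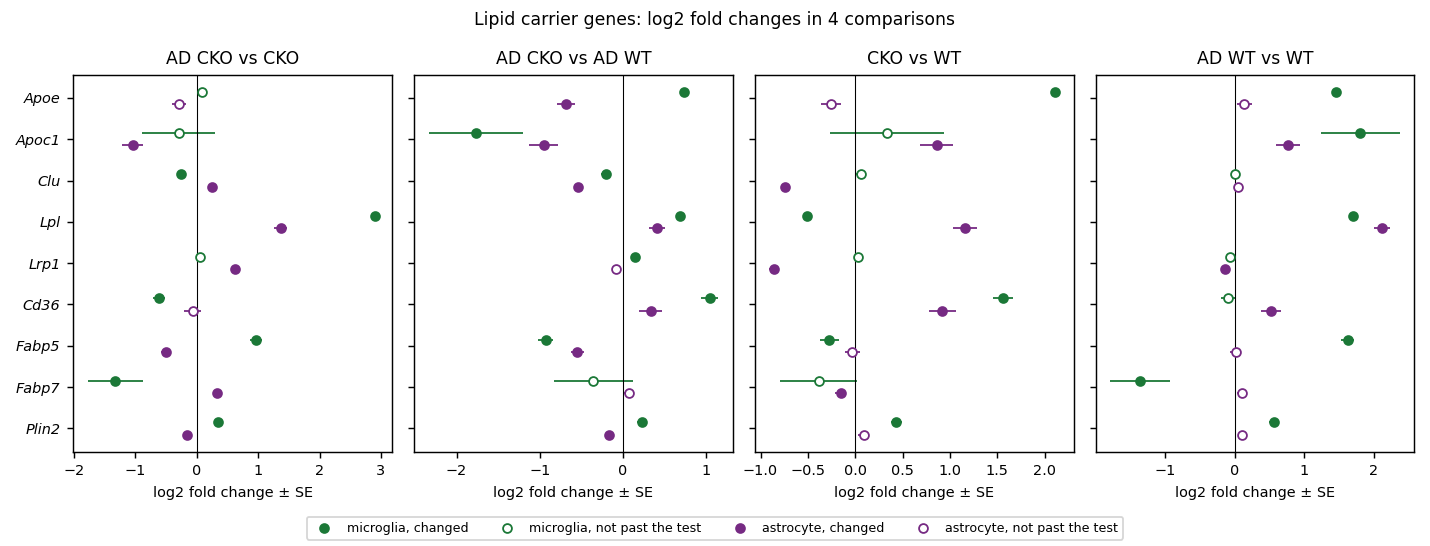
Log2 fold changes with standard errors of the 9 genes in 4 comparisons, in microglia (green) and astrocytes (purple); each panel has its own horizontal scale. Filled points passed the test (adjusted p under 0.05). Lpl in AD CKO against CKO microglia is the point farthest to the right, at 2.90.

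The astrocyte libraries gave another picture of the same genes. Clu and Apoe, the lipoprotein genes of astrocytes, were lower in AD CKO than in AD WT, and Clu was also lower in CKO than in WT. Lpl and Cd36, which were low in astrocytes, rose in both knockout comparisons and in AD WT against WT. Of the 9 genes, 6 changed in CKO against WT, 3 up and 3 down, where 64% of the 20116 genes tested changed, 31.6% up and 32.4% down. For AD WT against WT 4 changed, 3 up and 1 down, against 38% of all genes, 20% up and 18% down. The knockout within the AD model changed 7, 2 up and 5 down, against 52.1% of all genes, 25.1% up and 27% down. The AD model within the knockout changed 7, 4 up and 3 down, against 59.8% of all genes, 31.4% up and 28.4% down. The median log2 fold change of the 9 genes was -0.03, 0.10, -0.17 and -0.07 in these comparisons, and that of all genes tested was 0.01, 0.03, -0.03 and -0.01.

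**Figure D4:**
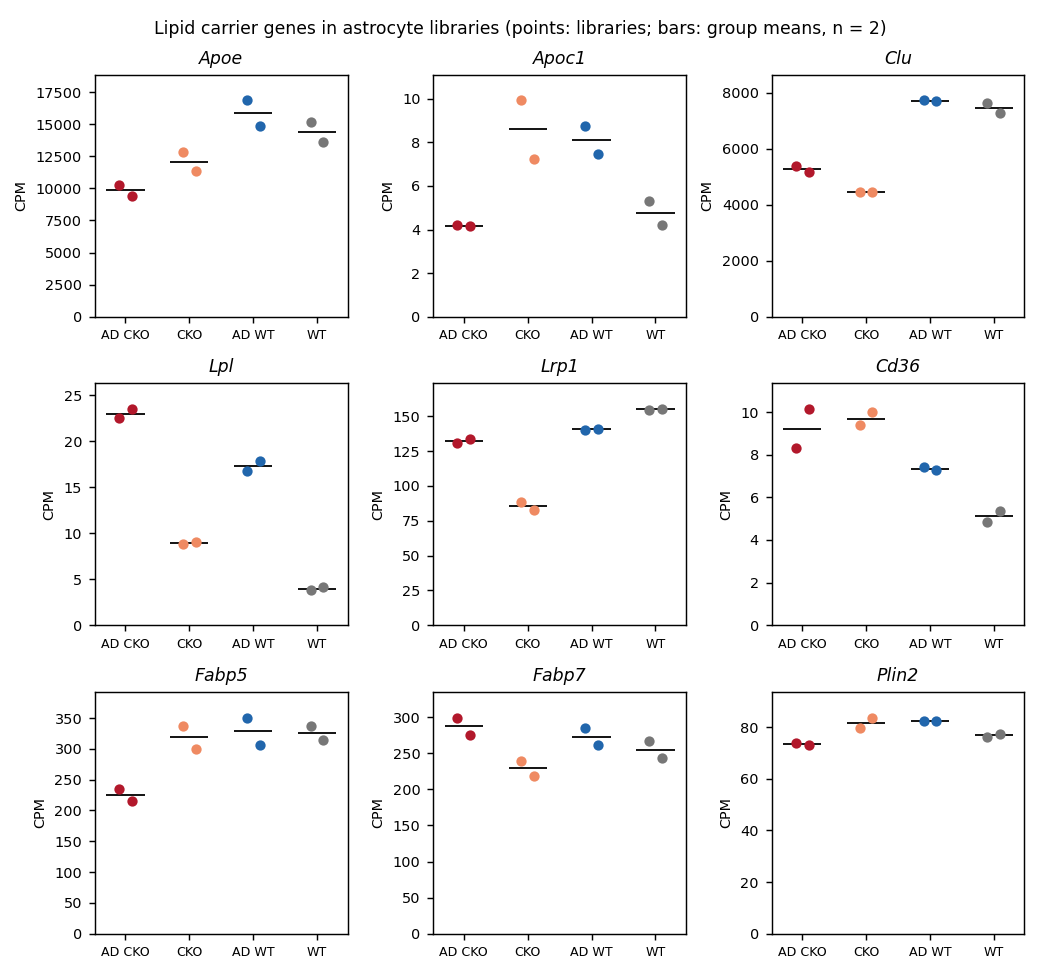
CPM of the 9 genes in the 8 astrocyte libraries, each panel on its own axis from 0. Points are libraries and bars are means of the 2 libraries of a group; Clu in CKO, at 4459 and 4463 CPM, lies below all other groups.

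Astrocyte Apoe had 10265 and 9437 CPM in AD CKO, 12797 and 11315 in CKO, 16844 and 14886 in AD WT, and 15165 and 13599 in WT. AD CKO was the lowest group, and AD WT and WT overlapped. Apoe fell by 0.69 ± 0.11 on the log2 scale in AD CKO against AD WT (adjusted p = 0.00594), which is 1.61-fold lower. The differences of -0.25 ± 0.11 in CKO against WT (adjusted p = 0.104) and -0.29 ± 0.11 in AD CKO against CKO (adjusted p = 0.0771) did not pass the test. Both did with DESeq2 (0.0444 and 0.0187) and when only the 2 groups were fitted (0.0259 and 0.00681). The interaction of -0.43 ± 0.15 had an adjusted p of 0.0697, and of 0.017 with DESeq2.

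Clu had 5390 and 5182 CPM in AD CKO astrocytes, 4463 and 4459 in CKO, 7720 and 7688 in AD WT, and 7633 and 7258 in WT. Both knockout groups lay below both groups with intact Rack1. It fell by 0.74 ± 0.03 in CKO against WT (adjusted p = 1.22e-14) and by 0.54 ± 0.03 in AD CKO against AD WT (adjusted p = 1.16e-11), and rose by 0.24 ± 0.03 in AD CKO against CKO (adjusted p = 1.6e-06). The sum of astrocyte markers was lowest in the same 2 groups, with 9 of its 10 genes lower in CKO than in WT and 9 of 10 lower in AD CKO than in AD WT; its part in the fall of Clu and Apoe was not tested.

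Apoc1 was better measured in astrocytes, at 136 to 335 counts per library. It had 4.21 and 4.15 CPM in AD CKO, 9.92 and 7.26 in CKO, 8.74 and 7.45 in AD WT, and 5.32 and 4.21 in WT. CKO and AD WT, each with 1 of the 2 factors, lay above AD CKO, which had both, and above WT. Apoc1 rose 1.81-fold in CKO against WT (log2 fold change 0.86 ± 0.17, adjusted p = 0.000161) and 1.71-fold in AD WT against WT (0.77 ± 0.17, adjusted p = 0.00133). It fell by 0.95 ± 0.17 in AD CKO against AD WT (adjusted p = 7.23e-05) and by 1.04 ± 0.17 against CKO (adjusted p = 1.79e-05). The interaction was -1.81 ± 0.24 (adjusted p = 1.28e-06).

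Lpl had 22.5 and 23.5 CPM in AD CKO astrocytes, 8.83 and 9.02 in CKO, 16.8 and 17.9 in AD WT, and 3.86 and 4.11 in WT. The groups did not overlap, and each factor went with a higher level. Lpl rose 2.23-fold in CKO against WT (log2 fold change 1.16 ± 0.13, adjusted p = 3.31e-08) and 4.34-fold in AD WT against WT (2.12 ± 0.12, adjusted p = 4.4e-12). Within the AD model the knockout went with a rise of 0.41 ± 0.10 (adjusted p = 0.00114), and the interaction was -0.75 ± 0.16 (adjusted p = 0.00033). Against CKO, Lpl in AD CKO rose 2.58-fold (1.37 ± 0.10, adjusted p = 1.6e-10).

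Microglia also express Lpl and Cd36, and microglial markers were present in the astrocyte libraries. Their sum was 933 to 938 CPM in AD CKO, 1218 to 1254 in CKO, 934 to 968 in AD WT and 492 to 498 in WT, and 9 of the 10 markers rose in CKO against WT and 9 of 10 in AD WT against WT. Border macrophage and monocyte markers summed to 49.5 to 55.4 CPM in AD CKO, 75.9 to 85.4 in CKO, 23.9 to 24.6 in AD WT and 21.8 to 22.5 in WT. Ependymal and choroid markers, 8 in all, summed to 5561 to 5964 CPM in AD CKO, 9367 to 10690 in CKO, 8567 to 9687 in AD WT and 4406 to 4722 in WT, so that CKO and AD WT were the 2 high groups, as they were for Apoc1. Of these 8 markers 6 rose and 1 fell in CKO against WT, and all 8 rose in AD WT against WT. Endothelial markers summed to 3318 to 3328 CPM in AD CKO, 6945 to 7054 in CKO, 2948 to 2983 in AD WT and 2437 to 2449 in WT, with 8 of 9 higher in CKO than in WT. The microglial genes Trem2, a lipid receptor, and Cd68, a lysosomal glycoprotein, were also higher in CKO than in WT astrocyte libraries, at 125 against 7.16 CPM and 106 against 11.6 CPM. The part of any of these cells in the Lpl, Cd36 and Apoc1 results was not tested.

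Lrp1 had 131 and 134 CPM in AD CKO astrocytes, 88.8 and 82.5 in CKO, 140.2 and 141 in AD WT, and 155 and 155 in WT. CKO lay well below the other 3 groups, and was also the lowest group for the sum of astrocyte markers. Of these 10 markers, 9 were lower and 1 higher in CKO than in WT, and 9 were higher and 1 lower in AD CKO than in CKO. In AD CKO against AD WT 9 were lower and 1 higher, where the Lrp1 difference of -0.09 ± 0.05 did not pass (adjusted p = 0.156). The part of these markers in the Lrp1 results was not tested. Lrp1 fell by 0.86 ± 0.05 in CKO against WT (adjusted p = 2.04e-12) and rose by 0.63 ± 0.05 in AD CKO against CKO (adjusted p = 7.26e-10), with an interaction of 0.77 ± 0.07 (adjusted p = 6.8e-09). The fall by 0.14 ± 0.05 in AD WT against WT (adjusted p = 0.0356) was lost without any 1 of the 4 libraries compared (0.0665 to 0.116).

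Cd36 had 8.31 and 10.1 CPM in AD CKO astrocytes, 9.39 and 9.99 in CKO, 7.42 and 7.27 in AD WT, and 4.84 and 5.38 in WT. WT was lowest, and AD CKO and CKO overlapped. Cd36 rose 1.89-fold in CKO against WT (log2 fold change 0.92 ± 0.14, adjusted p = 7.25e-06). Its rise in AD WT against WT (0.52 ± 0.15, adjusted p = 0.00753) was lost without WT replicate 1 (0.074). Its rise in AD CKO against AD WT (0.33 ± 0.14, adjusted p = 0.0467) was lost with DESeq2 (0.0911) and without AD CKO replicate 2 (0.405, where the log2 fold change was 0.19) or either AD WT library (0.105 and 0.125). The interaction of -0.59 ± 0.20 (adjusted p = 0.0141) was lost with DESeq2 (0.0542), without WT replicate 1 (0.0675) and without AD CKO replicate 1 (0.103).

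Fabp5 had 234 and 216 CPM in AD CKO astrocytes, 337 and 300.0 in CKO, 351 and 307 in AD WT, and 336 and 315 in WT. AD CKO stood alone below the other 3 groups, which overlapped. It fell by 0.55 ± 0.08 in AD CKO against AD WT (adjusted p = 0.00017) and by 0.50 ± 0.08 against CKO (adjusted p = 0.000244), and the interaction was -0.52 ± 0.11 (adjusted p = 0.00216).

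Fabp7 had 299 and 276 CPM in AD CKO astrocytes, 239 and 219 in CKO, 286 and 261 in AD WT, and 267 and 243 in WT. Only CKO lay below the rest. It rose by 0.33 ± 0.06 in AD CKO against CKO (adjusted p = 0.000208). Its fall by 0.15 ± 0.06 in CKO against WT (adjusted p = 0.0371) was lost without WT replicate 1 (0.289) or CKO replicate 2 (0.252), with DESeq2 (0.0542), with library totals alone (0.328, where the log2 fold change was -0.07) and with a filter of 1 CPM (0.0733). Its interaction of 0.23 ± 0.09 (adjusted p = 0.033) was lost without replicate 1 of AD CKO (0.0984) or WT (0.109), or replicate 2 of CKO (0.118) or AD WT (0.0841), and with the filter of 1 CPM (0.0562).

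Plin2 was the steadiest member in astrocytes, with 73.9 and 73.0 CPM in AD CKO, 79.7 and 83.7 in CKO, 82.3 and 82.6 in AD WT, and 76.2 and 77.5 in WT. AD CKO was the lowest group. Its fall by 0.17 ± 0.06 in AD CKO against AD WT (adjusted p = 0.015) was lost without any 1 of the 4 libraries compared (0.0666 to 0.114), with DESeq2 (0.0834) and with only the 2 groups fitted (0.0649), and turned to a difference of 0.03 with library totals alone, a scaling that shifts the median of all genes in this comparison by 0.19. Its fall by 0.15 ± 0.06 in AD CKO against CKO (adjusted p = 0.0204) was lost without CKO replicate 2 (0.158), AD CKO replicate 1 (0.0907) or AD CKO replicate 2 (0.116), with no filter (0.0514) and with library totals alone (0.575). Under library totals alone Plin2 also passed in CKO against WT (0.18, adjusted p = 0.00933) and Fabp7 in AD CKO against AD WT (0.27, adjusted p = 0.000568). Its interaction was -0.26 ± 0.08 (adjusted p = 0.00791) and did not pass with library totals alone (-0.15, adjusted p = 0.125).

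The interaction passed the test for 8 of the 9 genes in astrocytes, 3 up and 5 down, where 57.8% of all genes tested passed, 29.5% up and 28.3% down.

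Whether an effect differed between the cell types was tested in 1 fit over all 16 libraries and 20589 genes. For the knockout without the AD model, 6 of the 9 genes differed, 5 with a more positive effect in microglia and 1 with a more positive effect in astrocytes, where 46.8% of all genes differed, 25.6% and 21.2% in these directions. For the AD model with intact Rack1, 6 differed, 3 each way, where 23.3% of all genes did, 12.4% with a more positive effect in microglia and 10.9% in astrocytes. Values are the microglial log2 effect minus the astrocyte one, so that a positive value means a more positive effect in microglia.

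The largest difference was that of Apoe under the knockout, at 2.36 ± 0.12 (adjusted p = 4.42e-08), with 1.32 ± 0.12 under the AD model (adjusted p = 2.07e-05). Lpl went the other way, with -1.67 ± 0.11 under the knockout (adjusted p = 4.99e-13), since it fell in CKO microglia and rose in CKO astrocytes. Under the AD model the Lpl difference was -0.41 ± 0.11 (adjusted p = 0.00576), and it did not pass with limma-voom (0.114) or without astrocyte WT replicate 1 (0.0523).

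Fabp5 differed under the AD model by 1.62 ± 0.10 (adjusted p = 4.32e-12), as it rose in AD WT microglia and was level in AD WT astrocytes. Under the knockout its difference of -0.24 ± 0.11 (adjusted p = 0.0739) did not pass, and passed with RLE size factors (0.0425), library totals alone (0.032), no filter (0.0179), DESeq2 (0.0486), the 4 groups fitted alone (0.036) and without astrocyte CKO replicate 2 (0.02). The falls of Clu and Lrp1 in CKO astrocytes had no counterpart in CKO microglia. Their differences were 0.79 ± 0.07 (adjusted p = 3.98e-11) and 0.88 ± 0.07 (adjusted p = 1.3e-11). Of 10 astrocyte markers 9 fell and 1 rose in CKO against WT astrocyte libraries, and 6 rose and 1 fell in the microglia libraries. The part of cell type markers in these differences between the cell types was not tested.

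Plin2 responded more in microglia under both factors, by 0.34 ± 0.08 under the knockout (adjusted p = 0.00114) and 0.47 ± 0.08 under the AD model (adjusted p = 0.000114). Cd36 differed by 0.64 ± 0.18 under the knockout (adjusted p = 0.0051). Under the AD model Cd36 differed by -0.60 ± 0.19 (adjusted p = 0.0202), a call lost with limma-voom (0.067) and without microglia WT replicate 1 (0.112), microglia AD WT replicate 1 (0.0654), astrocyte WT replicate 1 (0.0905) or astrocyte AD WT replicate 1 (0.0605). Fabp7 differed under the AD model by -1.46 ± 0.31 (adjusted p = 0.00187) on its few microglial counts, and not with limma-voom (0.1). Under the knockout the Fabp7 difference of -0.24 ± 0.27 (adjusted p = 0.511) passed without microglia WT replicate 2 (-0.63, adjusted p = 0.0292). Apoc1 did not pass in either test, at -0.52 ± 0.51 (adjusted p = 0.433) and 1.05 ± 0.44 (adjusted p = 0.0877).

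**Figure D5:**
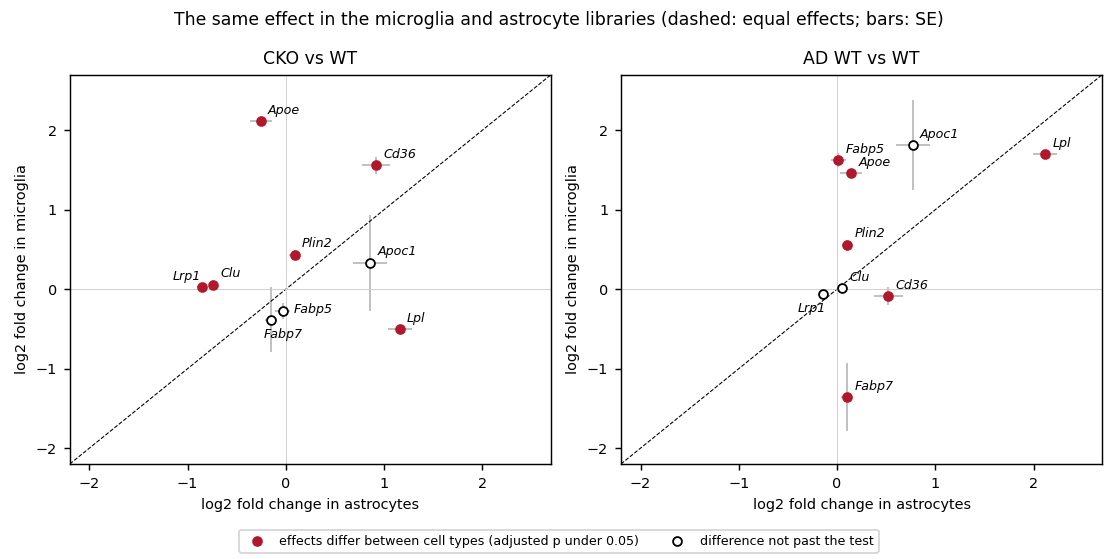
Log2 fold change in microglia (vertical) against that in astrocytes (horizontal) for the 9 genes, for CKO against WT (left) and AD WT against WT (right), with standard errors; the dashed line marks equal effects. Filled points differ between the cell types (adjusted p under 0.05), 6 in each panel, with Apoe far above the line on the left and Lpl below it.

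Levels can be set beside each other between genes only per length, and CPM per kilobase of the longest coding transcript was used for that, a level and not a difference. In microglia Apoe led in every group, at 11460 in AD CKO, 10830 in CKO, 6877 in AD WT and 2508 in WT. Lpl came next in AD CKO (149) and AD WT (92.6), and it stood behind Clu, Lrp1 and Plin2 in CKO (20.01) and WT (28.4). In WT the Clu (51.3 to 54.6) and Lrp1 (48.6 to 53.3) libraries overlapped, so their order is not settled. Fabp7 and Apoc1 came last in all 4 groups, between 0.623 and 2.38. Astrocyte markers summed to 294 CPM in WT microglia libraries and 19970 CPM in WT astrocyte libraries, and the latter held far more Clu and Fabp7. The part of astrocyte RNA in the microglial levels of Clu and Fabp7 was not tested. In astrocytes Apoe again led, at 6996 in AD CKO, 8562 in CKO, 11270 in AD WT and 10210 in WT, followed by Clu at 2920, 2465, 4256 and 4113. Fabp5 and Fabp7 came next, with overlapping libraries in AD WT, and then Plin2. Apoc1, Lrp1, Lpl and Cd36 were last, between 0.968 and 16.15.

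For members whose group means spanned at least 1 log2 unit, the 3 genes with the most similar profile over the 8 libraries of a cell type were named, by the root mean square difference of mean-centred log2 CPM. The candidates were 10182 genes in microglia and 11522 in astrocytes. Nearest to microglial Apoe were Pdcd1, the inhibitory receptor PD-1 (0.06), Rai14 (0.17) and Ptger4, a prostaglandin E receptor (0.18). Nearest to microglial Lpl were Spp1, the secreted phosphoprotein osteopontin (0.15), Ch25h, cholesterol 25-hydroxylase (0.24), and Clec7a, the receptor dectin-1 (0.45).

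Nearest to microglial Cd36 were Mrc1, the mannose receptor and one of the border macrophage markers above (0.14), Mgst1 (0.14) and Snph (0.15). Nearest to Fabp5 were Plaur, the urokinase receptor (0.14), the chemokine gene Ccl4 (0.14) and Kcnj2 (0.19). In microglia the differences were larger for Apoc1 (Bhlhe40 0.27, Tspan12 0.27, Pakap 0.29) and Fabp7 (Cd209a 0.32, Zfp973 0.34, Ntrk2 0.39) than for Cd36 and Fabp5. Apoc1 and Fabp7 had few counts there, and counting noise is part of such a difference. In astrocytes Lpl was nearest to Igha (0.16), an immunoglobulin heavy chain gene, Plek (0.27) and Kpna2 (0.28), and Apoc1 to Mrpl54 (0.11), the metallothionein Mt2 (0.12) and Micos13 (0.12).

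Other genes of the pathway were taken from 6 lists with 81 genes, of which 71 were tested in microglia and 77 in astrocytes. In CKO against WT microglia 30 rose and 9 fell, where 17.7% of all genes tested rose and 15.9% fell, with a median log2 fold change of 0.13 against 0.04 for all genes tested. Among lipoprotein and lipase partners 7 of 10 rose and 1 fell. Those that rose included Apoc2, the activator of lipoprotein lipase, at 5.14 against 0.879 CPM (log2 fold change 2.54 ± 0.28), and Lipa, lysosomal acid lipase, at 218 against 141 CPM (0.63 ± 0.05). Among receptors 6 of 14 rose, including Trem2 (0.62 ± 0.04), and Sort1, the sorting receptor sortilin, fell by 0.82 ± 0.05. Of 11 sterol genes 4 rose and 2 fell. Those that rose included Npc2, which binds cholesterol in the lysosome (0.44 ± 0.04), and the oxysterol-binding Osbpl1a (0.66 ± 0.09). The 2 that fell, named after their values were seen, were the lipid transporters Abca7 (by 0.42 ± 0.08) and Abcg1 (by 0.21 ± 0.07). Of the other lipid transporters of this list, also named afterwards, Abca1 rose, at 458 against 307 CPM (0.58 ± 0.13). Abca2 did not pass the test (0.11 ± 0.07).

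In the same comparison, of 12 fatty acid genes 3 rose and 2 fell, namely Fabp3, a fatty acid binding protein, by 2.15 ± 0.27 and Acsl4, an acyl-CoA synthetase, by 0.58 ± 0.06. Of 11 droplet genes 3 rose and 1 fell. Mgll, monoacylglycerol lipase, fell by 1.39 ± 0.09 while Dgat1, which makes triglyceride, rose by 0.38 ± 0.08. Of 13 transcription factors 7 rose and 2 fell, with Srebf2, the regulator of sterol synthesis, at 0.50 ± 0.07 and Mitf at 0.68 ± 0.10.

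In AD WT against WT microglia 23 of the 71 genes rose and 4 fell, where 10.7% of all genes rose and 8.62% fell, with a median of 0.14 against -0.02 for all genes. The receptors and uptake list had 9 of 14 higher and none lower, led by Cd68 (0.57 ± 0.04) and Lrpap1, the chaperone of LRP1 (0.60 ± 0.05). Ch25h (1.53 ± 0.10), Npc2 (0.60 ± 0.04) and Pltp, phospholipid transfer protein (0.85 ± 0.05), also rose, as did Fabp3, at 12.2 against 4.31 CPM.

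Within the AD model, AD CKO against AD WT microglia, 21 rose and 17 fell, where 17% of all genes rose and 15% fell, with a median of 0.08 against -0.0020 for all genes. Msr1, the scavenger receptor A, rose most clearly of the receptors, at 57.3 against 16.8 CPM (1.77 ± 0.10), while Sort1 fell by 0.59 ± 0.05. Lipa (0.61 ± 0.05) and Ch25h (0.57 ± 0.09) rose, and Fabp3 fell by 2.02 ± 0.23 and Mgll by 1.31 ± 0.09. Between AD CKO and CKO 17 rose and 5 fell, where 7.73% of all genes rose and 6.92% fell, with a median of 0.08 against -0.0013. Ch25h rose by 2.36 ± 0.10, at 65.1 against 12.7 CPM.

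Of the 77 genes tested in astrocytes, 28 rose and 41 fell in CKO against WT, where 31.6% of all genes rose and 32.4% fell, with a median of -0.24 against 0.01 for all genes. The falls included Slc27a1, a fatty acid transporter (by 1.45 ± 0.04), Acsl6 (by 1.41 ± 0.04), Srebf1, the regulator of fatty acid synthesis (by 1.41 ± 0.04) and Cyp46a1, cholesterol 24-hydroxylase (by 1.57 ± 0.08). Ch25h rose most, at 156 CPM in CKO against 1.88 CPM in WT (6.37 ± 0.11), and Pltp rose by 1.03 ± 0.04. Of 13 lipoprotein and lipase partners 9 rose and 4 fell. In the same comparison 9 of 10 astrocyte markers fell and 1 rose. Of 9 endothelial markers 8 rose and none fell, and of 8 ependymal and choroid markers 6 rose and 1 fell. The part of these markers in the changes of the 77 genes was not tested.

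In AD WT against WT astrocytes 21 rose and 19 fell, where 20% of all genes rose and 18% fell, with a median of 0.01 against 0.03. Trem2 (2.61 ± 0.10) and Ch25h (1.93 ± 0.14) rose and Abca2 fell by 0.73 ± 0.06. Of the same genes, in AD CKO against AD WT 25 rose and 31 fell, where 25.1% of all genes rose and 27% fell, with a median of -0.05 against -0.03. Lcat, which esterifies cholesterol on lipoproteins, fell by 0.96 ± 0.05 and Acsl3 by 0.95 ± 0.04. Between AD CKO and CKO 30 rose and 23 fell, where 31.4% of all genes rose and 28.4% fell, with a median of 0.08 against -0.01. Ch25h fell by 4.04 ± 0.08. Cell type markers also moved between these groups, and their part in these changes was not tested.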

How the data were processed

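The authors deposited 1 table of expected counts per gene for each cell type, not normalised, with 27% to 33.6% of a library's non-zero values fractional. Per the labels' protocols, libraries were made from 10 ng of total RNA with SMART-Seq v4 chemistry and read in pairs of 150 bases. The submitters' processing notes name fastp, HISAT2, StringTie and the build mm10. Tool versions, the annotation release, the counting step and its strand setting are not given in the sources used here.

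The deposited expected counts were rounded and tested per cell type over 8 libraries with edgeR 4.0.16 in R 4.3.3 (filterByExpr, TMM, robust quasi-likelihood F-test, two-sided, Benjamini-Hochberg over 17318 genes of microglia and 20116 of astrocytes), at a common biological coefficient of variation of 0.0678 for microglia and 0.0579 for astrocytes. Differences between cell types were tested in a joint fit of 20589 genes, with TMM within each table. The fit was tested on simulated counts, with changes placed only in well-counted genes, the same spread for all genes and only the CKO against WT effect. That test does not bear on sparsely counted members, on the interaction or on effects shared by replicates. CPM are on TMM-scaled totals, and log2 CPM used a prior count of 2. Alternatives were RLE factors, library totals alone, no filter, a filter of 1 CPM, DESeq2 1.42.0, limma-voom (limma 3.58.1), only the groups compared, a replicate block, and leaving out each library. The members, the lists and the tests were chosen with earlier results of these data known. Of each pathway list up to 2 genes per comparison, those with the smallest p, could be named. 1 gene that this rule named is not reported here.

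GENCODE M21 (mm10) matched 94.1% of identifiers in the microglia table and 91.5% in the astrocyte table, and gave coordinates and lengths. No exon of a member overlaps another gene. Replicate libraries differed by more than sampling noise (chi-square per degree of freedom 3.63 to 6.43). Stretches of 204 to 259 bases of Lpl and Plin2 transcripts resemble other genes at 90.7% to 96.1% identity. Those of Lpl, Trim5 and Vmn2r120, averaged 89.5 and 27.7 counts per astrocyte library, where Lpl averaged 456.5. Lpl had 111 and 133 counts in the WT astrocyte libraries. In microglia Trim5 and Vmn2r120 averaged 626.4 and 14.2 counts against 9055.8 of Lpl. The part of shared reads in the Lpl results was not tested.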

Additional observations from a re-analysis of the deposited data

Results flagged for a closer look

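These results stand out because the same contrast differed between settings, by edgeR's quasi-likelihood test of the difference itself (Benjamini-Hochberg adjusted p).

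The knockout effect in microglia differed between mice with and without the AD model for Apoe (-1.37, adjusted p = 3.16e-10), Lpl (1.19, 1.79e-13), Fabp5 (-0.65, 0.000967), Cd36 (-0.52, 0.0192) and Clu (-0.26, 0.0436). The values are log2 knockout effects with the AD model minus those without it. Lpl is the only one of these 5 whose knockout effect changed direction with both effects past the test.

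In astrocytes the same difference was -1.81 for Apoc1 (1.28e-06), 0.77 for Lrp1 (6.8e-09), -0.75 for Lpl (0.00033), -0.59 for Cd36 (0.0141), -0.52 for Fabp5 (0.00216), -0.26 for Plin2 (0.00791), 0.23 for Fabp7 (0.033) and 0.20 for Clu (0.00124). Apoc1 changed direction, with a higher level in CKO than in WT and a lower one in AD CKO than in AD WT.

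Between the cell types, the effect of CKO against WT in microglia minus that in astrocytes was 2.36 for Apoe (4.42e-08), -1.67 for Lpl (4.99e-13), 0.88 for Lrp1 (1.3e-11), 0.79 for Clu (3.98e-11), 0.64 for Cd36 (0.0051) and 0.34 for Plin2 (0.00114). For AD WT against WT it was 1.62 for Fabp5 (4.32e-12), -1.46 for Fabp7 (0.00187), 1.32 for Apoe (2.07e-05), -0.60 for Cd36 (0.0202), 0.47 for Plin2 (0.000114) and -0.41 for Lpl (0.00576).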

How the results depend on the processing

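Over 108 results for single members and 1854 values under alternatives, 1735 kept their direction and their side of the threshold, 89 lost the call, 29 gained it and 1 turned its sign, and 71 results held in every alternative. The reversed value was Plin2 in AD CKO against AD WT astrocytes, at 0.032 with library totals alone in place of -0.17. That scaling moved the median of all genes by 0.19 in this comparison and by 0.11 in AD CKO against CKO astrocytes and in the astrocyte interaction.

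Counts of members that fell in CKO against WT microglia went to 1 with library totals alone, limma-voom or only the groups compared, since Fabp5 was lost. In AD WT against WT microglia the falling members numbered 2 with library totals alone and 0 with DESeq2. In AD CKO against AD WT astrocytes the rising members numbered 1 with DESeq2. In the cell type difference of CKO against WT the members with a more negative effect in microglia numbered 2 with RLE factors, library totals alone, no filter, DESeq2, the replicate block or only the groups compared, and in that of AD WT against WT 0 with limma-voom.

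The correlation of same-numbered differences was between -0.03 and 0.05, so replicate numbers showed no general pairing of the libraries. Such a correlation cannot exclude an effect shared by replicate number in some genes, so pairing is not settled. In all 4 astrocyte groups Apoe, Apoc1, Clu, Fabp5 and Fabp7 were each higher in replicate 1 than in the other replicate. With the replicate block the rising members in AD WT against WT astrocytes numbered 6, with Apoe (adjusted p = 4.31e-08), Clu (0.0469) and Fabp7 (0.00883) added. Of all 20116 genes tested, 8911 passed in that comparison with the block, in place of 7648. Apoe, higher in replicate 1 of all 4 astrocyte groups, also passed with the block in CKO against WT (1.6e-15), AD CKO against CKO (4.71e-17) and the interaction (1.08e-17), Fabp7 in AD CKO against AD WT (0.0406) and Fabp5 in the cell type difference of CKO against WT (0.0326). The block changed no other member's call.

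Leaving out 1 library at a time, rising members numbered 3 to 5 and falling 1 to 3 in AD CKO against AD WT microglia, falling 1 to 3 in AD CKO against CKO microglia, falling 0 to 1 in AD WT against WT microglia and falling 1 to 2 in CKO against WT microglia. The microglial interaction had 1 to 2 up and 2 to 3 down, with 1385 to 1968 genes called in all in place of 2202, and AD WT against WT microglia had 2118 to 3355 in place of 3343. Both counts moved by over 1.5 times without AD WT replicate 1 (1457 and 2180) or AD WT replicate 2 (1385 and 2118). In astrocytes rising members numbered 1 to 2 in AD CKO against AD WT and falling 0 to 1 in AD WT against WT. In the cell type differences the negative members numbered 1 to 3 for AD WT against WT and 1 to 2 for CKO against WT.

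With 2 libraries per group, small changes of members with few counts, Apoc1 and Fabp7 in microglia, are the least certain, and levels set between the cell types rest on tables scaled separately.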
